A study of Homo sapiens with 24 samples.

Results

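Mitochondria make only a small share of their own proteins, and nearly all others are made in the cytosol and imported. The genes described here encode that import machinery. They were taken by symbol from the count tables: all symbols starting with TIMM or TOMM, together with HSPD1, HSPE1, HSPA9, GRPEL1, GRPEL2, PMPCA, PMPCB, SAMM50, DNAJC19, PAM16, MTX1 and MTX2. This gave 36 of 23106 genes, of which 35 had enough counts to be tested in every cell line. The exception, TOMM20L, had between 0 and 19 counts in each library.

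Poly-A RNA was sequenced from 4 established cancer cell lines, A549 (lung, grown in F12K), HCT116 (colorectal, McCoy's 5a), PC3 (prostate, F12K) and T47D (breast, DMEM). Each line was kept in normoxia (21% oxygen) or in hypoxia (0.5% oxygen for 16 h), with 3 libraries in each of the 8 groups. No line carried an engineered allele or received any other agent according to the labels. Each tumour type is represented by a single line, and line and culture medium cannot be told apart except between A549 and PC3, which shared a medium. The study's methods name alternative RNA kits, library kits and sequencers without assigning them to lines. Preparation may therefore also have differed between lines, A549 and PC3 included.

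Preproteins enter through the TOM complex of the outer membrane, whose receptors pass them to the channel TOMM40. From there, proteins with a presequence cross the inner membrane through the TIM23 complex, pulled by a motor built around the mitochondrial HSP70 (HSPA9). Hydrophobic carriers are escorted across the intermembrane space by small TIM chaperones to the TIM22 complex, while beta-barrel proteins are handed to the SAM complex. In the matrix the presequence is cut off by the peptidase PMPCA/PMPCB, and the chaperonin HSPD1 with its lid HSPE1 folds many of the arrivals.

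Library totals lay between 22698584 and 62850747 counts, so that 3 counts correspond to 0.0477 to 0.132 CPM, that is counts scaled to 1000000 per library. In every line the hypoxia check genes (CA9, EGLN3, PDK1, BNIP3, LDHA and VEGFA) were upregulated, 6 of 6 in A549, HCT116 and T47D and 5 of 6 in PC3, where PDK1 did not pass. The lineage markers did not all match the labels. Breast markers were all present in T47D (summed 2097.4 to 3464.2 CPM, at most 123.8 CPM in any other line). Of these, ESR1, GATA3, TFF1 and TRPS1 also averaged at least 1 CPM in PC3, GATA3 and TFF1 in A549, and GATA3 in HCT116. None of the 4 lung markers averaged 1 CPM in A549, and only CDX2 of the 5 colorectal markers did in HCT116. PC3 had no count for KLK3 or KLK2. HOXB13 averaged at least 1 CPM in PC3, but also in A549 and HCT116. NKX2-1 of the lung list did so in HCT116, and CDH17 of the colorectal list in A549. A pair of libraries stood apart for the import genes. Summed over the tested import genes, the third T47D hypoxia library held 4581 CPM against 3281 and 3169 CPM in the others of its group, within the normoxic range of 4179 to 4822 CPM. The second HCT116 normoxia library held 9487 CPM against 7884 and 7385 CPM.

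Most import gene transcripts were lower in hypoxia than in normoxia in A549, HCT116 and PC3, and 4 of them passed the test in T47D. A gene was called when its adjusted p (edgeR quasi-likelihood test, Benjamini-Hochberg over all genes tested) was under 0.05 and its fold change over 1.2. In A549, 23 of 35 members were downregulated, against 17.8% of all genes tested. In HCT116 it was 20 of 35, against 27.0%, and in PC3 23 of 35, against 15.7%. In T47D it was 4 of 35, against 6.69%. Upregulated members were rare: 0 in A549, PC3 and T47D, where 17.6%, 16.6% and 6.55% of all genes were upregulated, and 1 in HCT116 (TOMM34), where 23.3% were. None of the members was upregulated at an unadjusted p under 0.05 in A549, PC3 or T47D, and DESeq2 also called 0 there. The median log2 fold change (hypoxia minus normoxia) of the members was -0.41 in A549, -0.68 in HCT116, -0.39 in PC3 and -0.27 in T47D. Over all genes tested it lay between -0.03 and -0.01. These are bulk RNA samples, in which fewer cells with a transcript and less transcript per cell cannot be told apart.

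Counting libraries gave a similar picture. All 3 hypoxic libraries lay below all 3 normoxic ones for 27 of 35 members in A549 (24.8% of all genes), 22 in HCT116 (32.1%), 26 in PC3 (25.6%) and 9 in T47D (15.8%). In T47D, 28 of 35 members had a log2 fold change below 0, and the median standard error of 0.23 was larger than the 0.12 of A549 and the 0.11 of PC3. The T47D count rested on single libraries: it was 15 without the third hypoxia library, 1 without the first or the second, and 0 without the first or second normoxia library. The share of all genes downregulated moved as well, to 12.2%, 2.54%, 3.44%, 0.133% and 0.597%. Same-numbered T47D libraries deviated together, and 9 members were downregulated in a fit blocked on replicate number, the 4 above with TIMM10, TIMM17A, TIMM44, GRPEL2 and PAM16, against 10.5% of all genes in that fit. Same-numbered PC3 libraries also deviated together, and the block there gave 22 downregulated members (16.6% of all genes). In HCT116 the same-numbered pairs correlated at 0.334, 0.270 and 0.089, and the block gave 22 (29.6% of all genes). In PC3 the count of 23 fell to 8 without the first hypoxia library (6.4% of all genes), 9 without the second (6.46%) and 15 without the first normoxia library (9.44%), and in A549 to 14 without the second normoxia library (10.4%). In HCT116 17 members, all among the 20, remained called without the second normoxia library (19.6% of all genes). Scaling by total counts shifted the median of all genes to -0.13 in A549 and -0.12 in T47D. The share of all calls that were upregulated then dropped from 49.8% to 33.9% in A549 and from 49.5% to 32.1% in T47D. With that scaling 29 members were downregulated in A549 (24.9% of all genes) and 14 in T47D (10%).

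**Figure D1:**
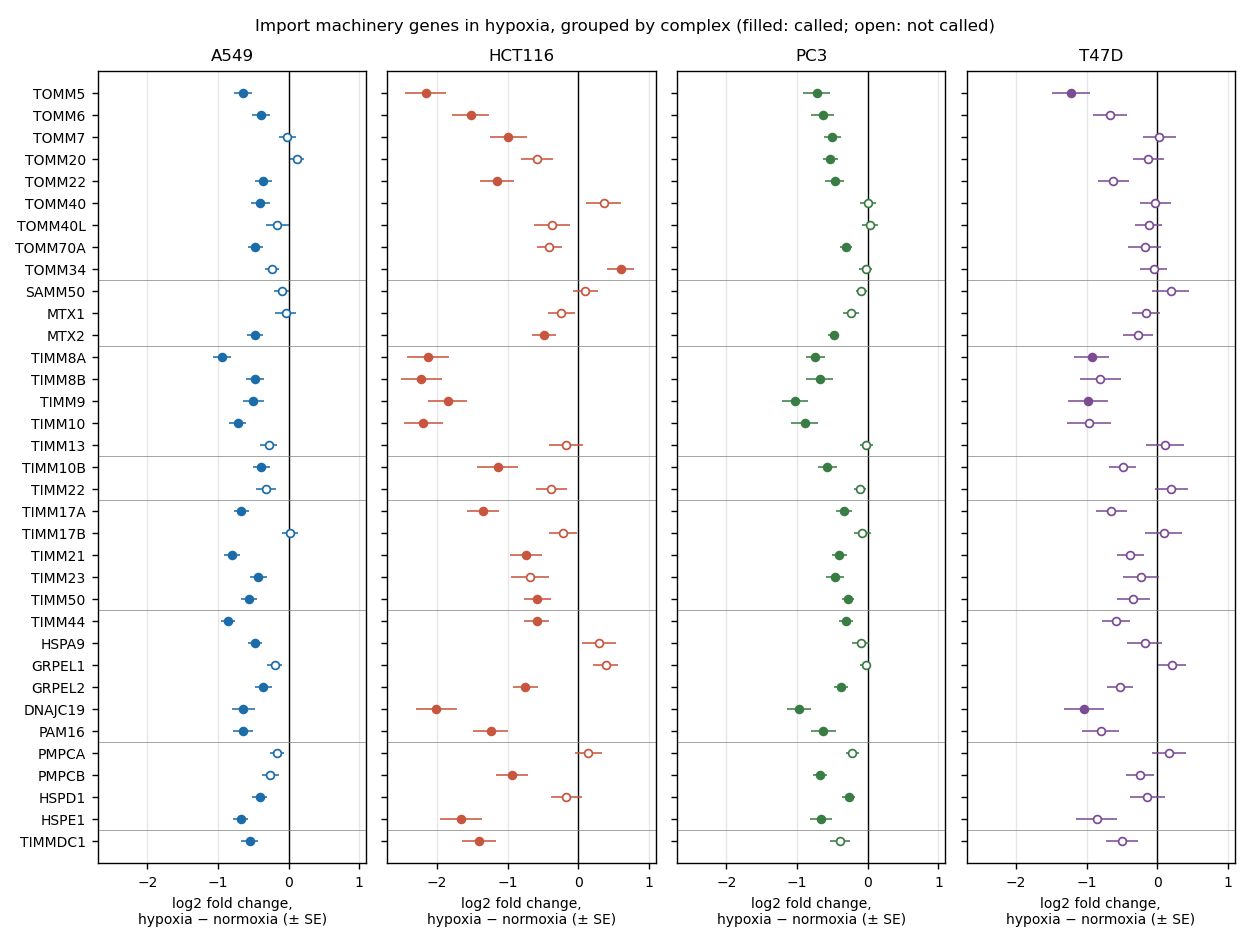
Log2 fold change (hypoxia minus normoxia, x axis) with its standard error for the 35 tested import genes in each of 4 cell lines; rows are grouped by complex, filled points were called and open points were not. Most points lie left of 0, TOMM34 in HCT116 is the only call to the right, and the HCT116 values reach -2.22.

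Of the 35 members, 17 were downregulated in 3 or 4 lines, against 10.5% of the 11734 genes tested in all lines. All 4 lines shared TOMM5, TIMM8A, TIMM9 and DNAJC19 (3.36% of all genes were downregulated in all 4). A further 13 passed in A549, HCT116 and PC3: TOMM6, TOMM22, MTX2, TIMM8B, TIMM10, TIMM10B, TIMM17A, TIMM21, TIMM50, TIMM44, GRPEL2, PAM16 and HSPE1. In 2 lines it was 6 members, namely TIMM23, TOMM70A and HSPD1 in A549 and PC3, TOMM7 and PMPCB in HCT116 and PC3, and TIMMDC1 in A549 and HCT116. TOMM40 and HSPA9 passed in A549 alone and TOMM20 in PC3 alone. The 9 members downregulated in no line were TOMM40L, TOMM34, SAMM50, MTX1, TIMM13, TIMM22, TIMM17B, GRPEL1 and PMPCA. No member was called in opposite directions in 2 lines.

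TOMM5, a small subunit that stabilises the TOM complex, is encoded at chr9:37582643-37592601 (GRCh37, minus strand; canonical transcript of 706 bases in 2 exons). Its normoxic libraries held 267.7, 431.4 and 184.8 CPM in HCT116 and its hypoxic ones 81.4, 55.0 and 61.4 CPM, a drop to 0.22 of the normoxic level (log2 fold change -2.16, SE 0.29, edgeR adjusted p = 0.000155). In A549 it went from 129.4, 134.8 and 114.3 CPM to 68.2, 80.4 and 92.9 CPM. In PC3 it went from 57.6, 47.5 and 86.5 CPM to 35.7, 39.3 and 40.8 CPM. T47D fell from 79.2, 78.2 and 46.4 CPM to 27.6, 21.0 and 38.8 CPM. The states did not overlap in any of the 4 lines, and the log2 fold changes outside HCT116 were -0.65, -0.72 and -1.22.

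TIMM8A, a small TIM chaperone whose loss causes deafness-dystonia syndrome, lies at chrX:100600649-100603730 (GRCh37, minus strand; 1210 bases, 2 exons). In A549 its level fell from 24.7, 27.5 and 21.9 CPM to 11.9, 13.2 and 13.5 CPM, the largest change of any member in that line (log2 fold change -0.94, SE 0.13, edgeR adjusted p = 0.000297). In HCT116 it fell from 58.8, 84.4 and 38.2 CPM to 19.1, 9.66 and 12.7 CPM. The values in PC3 went from 32.3, 32.4 and 42.4 CPM to 18.8, 22.2 and 23.0 CPM. In T47D they went from 18.7, 21.7 and 13.2 CPM to a mean of 9.39 ± 2.26 CPM (SD, n = 3). Again no hypoxic library reached its line's lowest normoxic one.

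TIMM9, which forms the hexameric carrier chaperone with TIMM10, lies at chr14:58875213-58894249 (GRCh37, minus strand; 1252 bases, 6 exons). In PC3 it fell from 75.8, 68.0 and 115.5 CPM to a mean of 42.2 ± 6.71 CPM, SD, n = 3, with 48.3 CPM the highest (log2 fold change -1.03, SE 0.19, edgeR adjusted p = 0.00507). HCT116 fell from 49.2, 70.9 and 32.2 CPM to 13.1, 16.8 and 12.2 CPM. In A549 the states overlapped, since the third normoxia library held 27.4 CPM and the third hypoxia library 28.1 CPM. They overlapped in T47D as well, at 38.2 CPM in the third normoxia library and 41.6 CPM in the third hypoxia library. TIMM9 overlaps KIAA0586 and TOMM20L on the other strand, and 3 pseudogenes carry its name.

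DNAJC19, the J protein that stimulates HSPA9 in the import motor, lies at chr3:180701485-180707562 (GRCh37, minus strand; 1416 bases, 6 exons). Its level fell from 75.2, 118.3 and 44.2 CPM to 21.5, 18.9 and 18.7 CPM in HCT116 (log2 fold change -2.01, SE 0.29, edgeR adjusted p = 0.000203). In PC3 it fell from 40.9, 34.3 and 58.0 CPM to 20.6, 22.8 and 24.1 CPM. In A549 it fell from 16.0, 19.3 and 13.7 CPM to 10.4, 8.84 and 12.1 CPM. T47D had the highest levels, 159.7, 204.3 and 104.5 CPM in normoxia and 60.3, 61.3 and 105.7 CPM in hypoxia, so that the third hypoxia library overlapped the normoxic ones. As 9 named pseudogenes resemble DNAJC19, its counts are less certain than those of a single-copy gene.

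**Figure D2:**
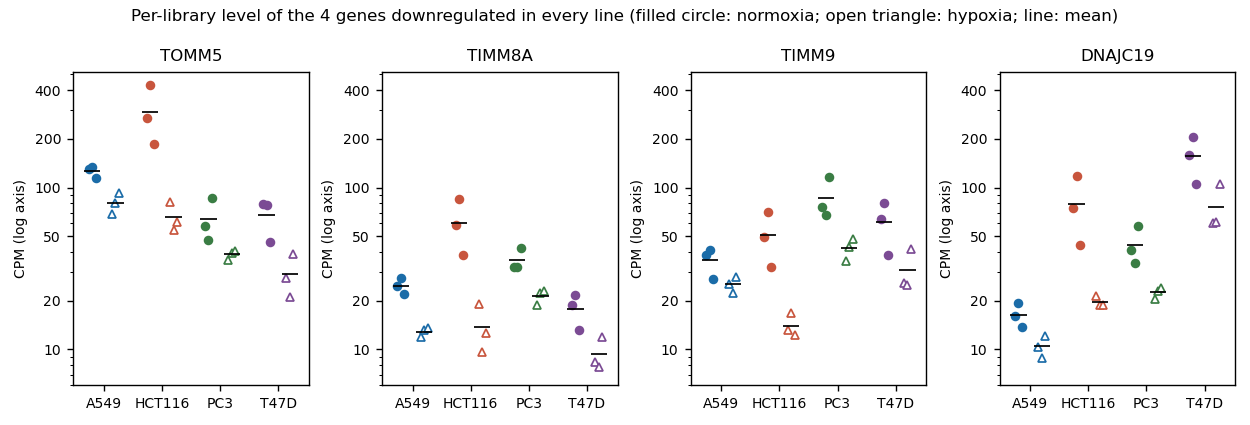
CPM on a log axis in each library of the 4 lines for TOMM5, TIMM8A, TIMM9 and DNAJC19; filled circles are normoxia, open triangles hypoxia and horizontal lines the means of 3 libraries. All hypoxic means lie below the normoxic means, and the spread among HCT116 normoxic libraries is wide, from 184.8 to 431.4 CPM for TOMM5.

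The promoter windows of downregulated members are shown so that their motif letters can be compared. The windows run from 250 bases before to 50 bases after the RefSeq start (GRCh38.p14), and 33 of 36 members had an entry (TOMM5, TIMM8B and GRPEL1 had none by symbol). Capitals mark every match, on either strand, to the core of the hypoxia response element (ACGTG or GCGTG), the E-box (CACGTG, which contains ACGTG), the NRF1 core (GCATGCGC), the ETS site (CCGGAAG) and the heat shock element (GAANNTTC). The first 3 windows belong to members downregulated in all 4 lines, and the others to the TIM23 channel paralogs, of which TIMM17A was downregulated and TIMM17B was not.
TIMM8A (chrX:101348693-101348992, minus strand): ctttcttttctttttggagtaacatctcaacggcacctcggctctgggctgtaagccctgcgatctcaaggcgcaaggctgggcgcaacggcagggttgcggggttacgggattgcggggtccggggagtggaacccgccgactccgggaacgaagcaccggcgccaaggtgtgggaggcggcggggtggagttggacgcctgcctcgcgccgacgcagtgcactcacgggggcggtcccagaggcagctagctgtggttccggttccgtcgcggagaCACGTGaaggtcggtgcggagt
TIMM9 (chr14:58427482-58427781, minus strand): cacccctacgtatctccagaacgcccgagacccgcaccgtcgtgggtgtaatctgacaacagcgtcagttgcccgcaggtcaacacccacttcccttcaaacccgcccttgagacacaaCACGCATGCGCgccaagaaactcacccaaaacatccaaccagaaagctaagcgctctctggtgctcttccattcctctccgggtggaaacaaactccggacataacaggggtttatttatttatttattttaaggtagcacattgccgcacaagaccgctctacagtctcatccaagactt
DNAJC19 (chr3:180989725-180990024, minus strand): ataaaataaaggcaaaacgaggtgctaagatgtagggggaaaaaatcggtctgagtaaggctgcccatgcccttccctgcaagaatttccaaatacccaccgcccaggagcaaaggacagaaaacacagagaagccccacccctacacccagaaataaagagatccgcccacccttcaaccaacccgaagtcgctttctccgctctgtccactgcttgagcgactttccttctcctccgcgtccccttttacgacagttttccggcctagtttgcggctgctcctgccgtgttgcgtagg
TIMM17A (chr1:201955253-201955552, plus strand): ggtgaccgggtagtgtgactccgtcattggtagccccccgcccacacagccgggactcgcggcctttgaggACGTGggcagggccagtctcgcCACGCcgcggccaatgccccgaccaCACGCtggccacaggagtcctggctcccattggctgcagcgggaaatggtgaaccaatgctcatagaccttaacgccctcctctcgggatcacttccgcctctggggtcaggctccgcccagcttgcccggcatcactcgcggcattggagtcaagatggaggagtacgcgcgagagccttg
TIMM17B (chrX:48897719-48898018, minus strand): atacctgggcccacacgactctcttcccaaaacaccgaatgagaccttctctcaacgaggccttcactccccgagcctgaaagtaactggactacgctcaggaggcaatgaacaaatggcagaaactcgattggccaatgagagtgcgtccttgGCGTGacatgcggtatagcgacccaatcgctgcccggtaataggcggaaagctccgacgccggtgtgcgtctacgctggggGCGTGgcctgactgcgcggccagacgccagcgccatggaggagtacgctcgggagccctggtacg

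TIMM8A carried a palindromic E-box shortly after its start, TIMM9 an NRF1 core overlapping a GCGTG match, and DNAJC19 no match. TIMM17A and TIMM17B each held matches to the hypoxia response element core and to nothing else. Among the 33 members, 27 (81.8%) held that core, against 48.4% of the 27305 promoters in the table. It was in 11 of the 15 windows of members downregulated in 3 or 4 lines (73.3%) and in 16 of the 18 other windows (88.9%). The ETS letters were in 13 members (39.4%, against 10.7% of all promoters), the E-box in 6 (18.2%, against 7.43%) and the NRF1 core in 4 (12.1%, against 3.27%). No member held the heat shock element letters, which were in 6.87% of all promoters. The head-to-head genes HSPD1 and HSPE1 share part of their windows, so 1 E-box counts for both. The promoters were not matched for base composition, and a match describes letters only.

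The TOM group took in TOMM34 by its symbol, although that protein is cytosolic. Of the 9 tested members of the group, 5 were downregulated in A549, 4 in HCT116, 6 in PC3 and 1 in T47D. The small subunit TOMM6 and the central receptor TOMM22 passed in A549, HCT116 and PC3. HCT116 TOMM6 fell from 319.2, 529.2 and 274.5 CPM to 153.5, 120.7 and 116.9 CPM (log2 fold change -1.52, SE 0.26, edgeR adjusted p = 0.000473), while A549 and PC3 had log2 fold changes of -0.39 and -0.64. TOMM22 had log2 fold changes of -0.36, -1.15 and -0.47 in the same lines. The channel TOMM40 was not called in HCT116, PC3 or T47D, where its log2 fold changes were 0.36, 0.00 and -0.03. The presequence receptor TOMM20 in A549 held 303.5, 286.7 and 323.1 CPM in hypoxia, above all its normoxic values of 277.8 to 281.6 CPM, but did not pass (log2 fold change 0.12, SE 0.10).

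TOMM34, a cytosolic co-chaperone of preproteins, was the only upregulated member in the main fit of each line. In HCT116 it rose from 77.0, 54.4 and 63.0 CPM to 105.9, 91.9 and 96.3 CPM (log2 fold change 0.60, SE 0.19, edgeR adjusted p = 0.0204), and the states did not overlap. The call was lost without the third HCT116 hypoxia library. In A549 all 3 hypoxic libraries lay below the normoxic ones, with a log2 fold change of -0.24 (SE 0.10) that did not pass.

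Of the SAM complex, the metaxin MTX2 was downregulated in A549, HCT116 and PC3 with log2 fold changes of -0.48, -0.49 and -0.48. In PC3 its libraries were tightly grouped at 46.5, 46.2 and 46.5 CPM in normoxia and 33.6, 33.2 and 32.8 CPM in hypoxia. SAMM50, the channel, and MTX1 were called in no line.

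The small TIM chaperones of the intermembrane space changed most in HCT116, where 4 of 5 were downregulated with a group median of -2.13. TIMM8B fell from 133.0, 208.1 and 85.9 CPM to 36.1, 24.7 and 30.6 CPM there (log2 fold change -2.22, SE 0.29, edgeR adjusted p = 0.00014), the lowest value of any member in any line. TIMM10 fell from 95.2, 127.1 and 62.8 CPM to 27.8, 17.1 and 17.2 CPM (log2 fold change -2.19, SE 0.28). The states of both genes lay well apart in that line. The same 4 genes, TIMM8A, TIMM8B, TIMM9 and TIMM10, were downregulated in A549 and PC3, where TIMM10 had log2 fold changes of -0.72 and -0.89 and TIMM8B of -0.48 and -0.68. In T47D TIMM10 held 185.1, 169.8 and 127.2 CPM in normoxia and 64.1, 51.9 and 130.0 CPM in hypoxia, and was not called (log2 fold change -0.97, edgeR adjusted p = 0.0536). TIMM13, the partner of TIMM8A, was called in no line, with log2 fold changes from -0.28 in A549 to 0.11 in T47D.

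Of the TIM22 carrier translocase, TIMM10B was downregulated in A549, HCT116 and PC3 (log2 fold changes -0.39, -1.14 and -0.57) and the channel TIMM22 in none. In the TIM23 presequence translocase, TIMM17A, TIMM21 and the receptor TIMM50 passed in the same 3 lines. TIMM21, which links TIM23 to TOM, fell in A549 from 37.4, 37.2 and 37.3 CPM to 19.6, 22.0 and 22.9 CPM (log2 fold change -0.80, SE 0.11, edgeR adjusted p = 0.000287). The normoxic libraries were almost equal and all hypoxic ones far below them. Its log2 fold changes in HCT116 and PC3 were -0.74 and -0.40. TIMM50 had log2 fold changes of -0.56, -0.58 and -0.28, and in PC3 its call was lost with the replicate block (edgeR adjusted p = 0.0651). TIMM23, the channel itself, passed in A549 and PC3 (-0.43 and -0.46), and its HCT116 value was -0.68 with an adjusted p of 0.0502 by the edgeR test. TIMM23 has a near-identical copy, TIMM23B, not analysed here, so reads from either copy may have been lost or shared.

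In the import motor, TIMM44, which tethers HSP70 to the channel, fell in A549 from 46.4, 47.4 and 44.8 CPM to 26.9, 25.7 and 23.6 CPM (log2 fold change -0.86, SE 0.10, edgeR adjusted p = 0.00014). In HCT116 and PC3 its log2 fold changes were -0.59 and -0.31. PAM16, the J-like regulator of DNAJC19, had log2 fold changes of -0.65, -1.24 and -0.63 in the 3 lines where it was called, although a readthrough transcript with CORO7 overlaps it. HSPA9 passed in A549 alone, from 777.9, 715.5 and 744.0 CPM to 543.8, 530.8 and 528.3 CPM. Its HCT116 values overlapped between states (log2 fold change 0.29, SE 0.24).

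HSPE1, the chaperonin lid, fell in HCT116 from 1149.6, 1480.1 and 609.9 CPM to 406.8, 289.9 and 325.6 CPM (log2 fold change -1.66, SE 0.30, edgeR adjusted p = 0.000668). The A549 and PC3 libraries gave -0.68 and -0.66. HSPD1, the barrel, held 2207.1, 2181.9 and 2393.8 CPM in HCT116 normoxia and 2272.4, 1825.9 and 1949.8 CPM in hypoxia, with overlapping states. It passed in A549 and PC3 (-0.41 and -0.27), in PC3 not with the replicate block (edgeR adjusted p = 0.0564). The peptidase subunit PMPCB was downregulated in HCT116 and PC3 (-0.94 and -0.67). HSPD1 and HSPE1 overlap each other and have 18 and 26 named pseudogenes, so their counts are uncertain. TIMMDC1, a complex I assembly factor named for its TIM-like domain, had log2 fold changes of -0.55 in A549 and -1.40 in HCT116, and passed in PC3 with the replicate block alone (-0.37, edgeR adjusted p = 0.0419).

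Paralogs and partners were compared as log2 count ratios, which do not depend on the scaling of a library. Of 11 listed pairs, 9 had a mean of at least 10 counts for both genes, and the ratio differed between oxygen states for 6 (two-sided exact permutation test of oxygen labels within lines, 160000 relabelings, adjusted over the 9 pairs). TIMM17A against TIMM17B moved by -0.70 (exact permutation p = 1.25e-05, the smallest the test can give; adjusted p = 0.000113), with non-overlapping ratios in all 4 lines and a lower ratio in 12 of 12 same-numbered pairs. In A549, TIMM17A fell from 152.1, 151.9 and 142.6 CPM to 82.6, 93.7 and 103.6 CPM, while TIMM17B held 65.0, 69.1 and 65.9 CPM and then 63.7, 65.0 and 74.8 CPM. In HCT116 the log2 ratio went from 3.74 to 2.60 and in T47D from 0.19 to -0.51. 

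The nucleotide exchange factors also parted: GRPEL1 against GRPEL2 moved by 0.59 (exact permutation, adjusted p = 0.000169), 12 of 12 same-numbered pairs being higher. GRPEL2 was downregulated in A549, HCT116 and PC3 (log2 fold changes -0.36, -0.75 and -0.38) and GRPEL1 in none. In HCT116, GRPEL1 held 109.1, 88.5 and 96.7 CPM in normoxia and 137.8, 125.9 and 121.4 CPM in hypoxia without passing. HSPD1 against HSPE1, which are partners rather than paralogs, moved by 0.71 (adjusted p = 0.000375 by the exact permutation test). TIMM10 against TIMM10B moved by -0.53 (adjusted p = 0.000591) and PMPCA against PMPCB by 0.48 (adjusted p = 0.00126), by the same exact test. MTX1 against MTX2 moved by 0.26 (exact permutation, adjusted p = 0.00169). TIMM8A against TIMM8B, TIMM9 against TIMM10 and TOMM40 against TOMM40L did not pass, with differences of -0.14, 0.14 and 0.14.

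**Figure D3:**
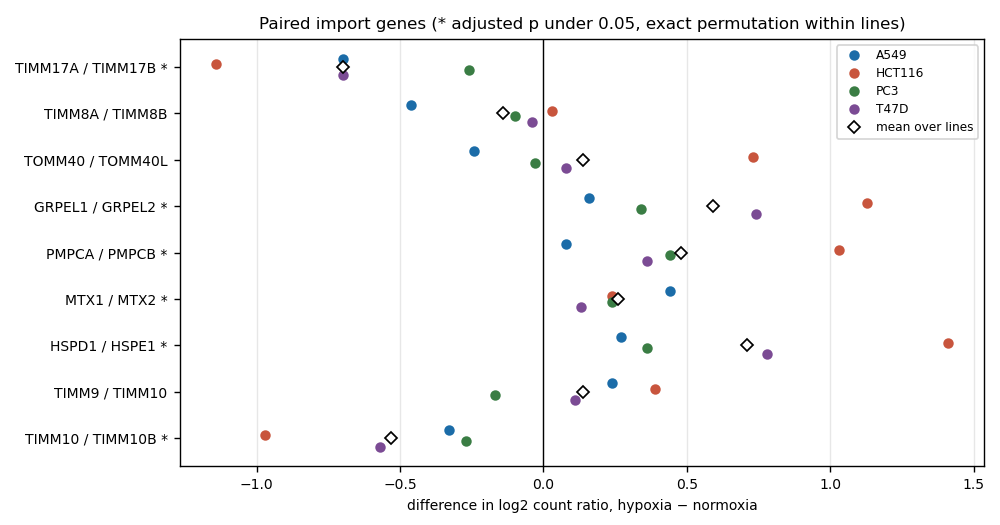
Difference in log2 count ratio (hypoxia minus normoxia, x axis) for 9 pairs of import genes; coloured points are the 4 lines, each from 3 libraries per state, and open diamonds their mean. For the 6 pairs with a star all 4 lines lie on the same side of 0, and HCT116 lies farthest out for TIMM17A/TIMM17B at -1.14 and HSPD1/HSPE1 at 1.41.

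Base composition moved with these results. Over all genes tested, log2 fold change and transcript GC content were correlated across genes with Spearman's rho of 0.30 in A549, 0.38 in HCT116, 0.36 in PC3 and 0.32 in T47D, and with transcript length at 0.21, 0.25, 0.24 and 0.14. Genes share libraries and are not independent replicates. Among the 35 members rho with GC content was 0.30, 0.43, 0.54 and 0.43. Of the 16 members under 45% GC, 14 were downregulated in A549, 12 in HCT116, 14 in PC3 and 4 in T47D, against 29.4%, 44.4%, 28.5% and 12.5% of all such genes. Of the 19 members at 45% or more, 9, 8, 9 and 0 were, against 11.3%, 16.4%, 8.34% and 3.38%. Members of under 1000 bases had a median log2 fold change of -1.59 in HCT116 (8 members), and all genes of that length -0.86.

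In a fit that removed the trend of each library with GC content and length, 15 members were downregulated in A549 (14.8% of all genes in that fit), 14 in HCT116 (21.7%), 14 in PC3 (11.4%) and 4 in T47D (6.28%). The T47D count was equal to the uncorrected one, but TOMM22, TIMM10 and TIMM44 had taken the place of TIMM8A, TIMM9 and DNAJC19. The median log2 fold changes of the members became -0.22, -0.36, -0.19 and -0.21. TIMM10 and TIMM44 were then downregulated in all 4 lines, and TOMM5, TOMM22, TIMM8A, TIMM10B, TIMM50 and PAM16 in 3. HSPE1, MTX2 and GRPEL2 were downregulated in none, and HSPE1 had corrected log2 fold changes of -0.17, 0.10, 0.00 and -0.12. DNAJC19 and TIMM9 kept their calls in HCT116 and PC3 only. Upregulated in that fit were TOMM20 in A549 (0.35), TOMM34 and GRPEL1 in HCT116 (0.59 and 0.52) and TOMM7 in T47D (0.51). Over all genes it was 2292 of 13897 in A549, 2354 of 13614 in HCT116 and 998 of 14085 in T47D. Among the pairs, TIMM17A (40.4% GC) against TIMM17B (61.7%) moved by a mean of -0.29 in the corrected values, below 0 in 3 of 4 lines. GRPEL1 against GRPEL2 moved by 0.34, TIMM10 against TIMM10B by -0.25 and HSPD1 against HSPE1 by 0.13. PMPCA against PMPCB moved by 0.04, and MTX1 (63.4% GC) against MTX2 (41.9%) turned to -0.39, below 0 in all 4 lines. The part of base composition and length in the hypoxia values was not tested.

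**Figure D4:**
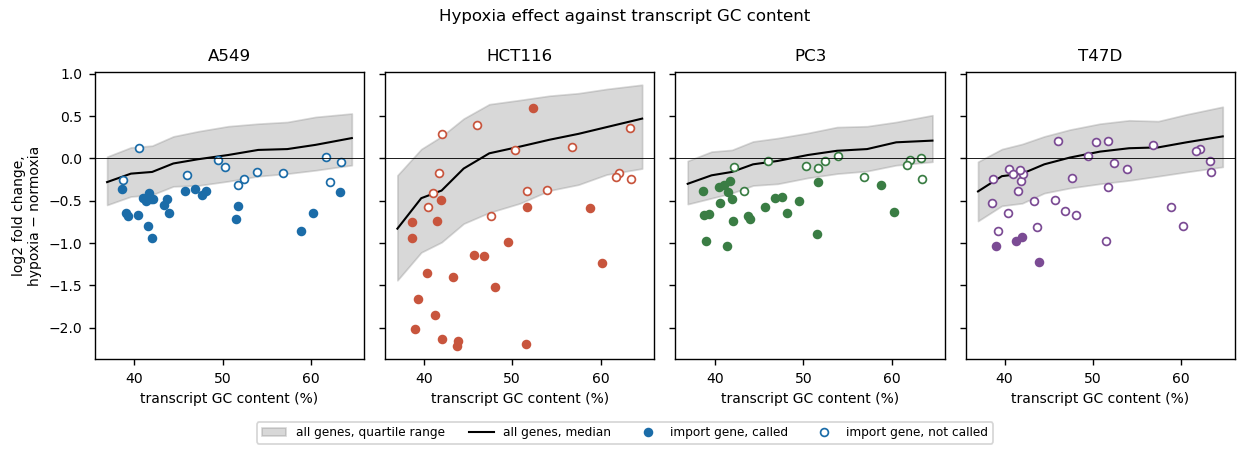
Log2 fold change (hypoxia minus normoxia) against GC content of the canonical transcript in each line; the black line is the median and the grey band the range between the quartiles of all genes in 10 bins of GC content, and points are import genes, filled where called. All-gene medians climb with GC content in every line, and most import genes lie below them.

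The hypoxia effect itself differed between lines for 8 of 36 members (edgeR test of the 3 interaction coefficients, adjusted p under 0.05), a share near the 18.3% of all genes. They were TOMM34 (adjusted p = 0.00828), TIMM8B (0.0118), TOMM5 (0.0203), TIMM8A (0.0227), TIMM17A (0.0332), TIMM10 (0.0347), TIMMDC1 (0.0455) and GRPEL1 (0.0471). For TIMM8B the log2 fold changes were -0.48, -2.22, -0.68 and -0.81 in A549, HCT116, PC3 and T47D. All 8 had their most extreme value in HCT116. The count rested on HCT116 libraries: it was 1 (TOMM34) without the second normoxia library, 2 without the third hypoxia library, 3 without the second hypoxia library and 13 without the third normoxia library.

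Normoxic levels differed between the lines for 34 of 35 members (edgeR test of 3 line coefficients), against 93.5% of all genes, and TIMMDC1 did not pass. Compared per kilobase of transcript, HSPD1 and HSPE1 ranked highest in A549 (737.9 ± 21.7 and 708.7 ± 68.4 CPM per kb, SD, n = 3), HCT116 (1008.3 ± 99.5 and 1915.7 ± 722.1) and PC3 (691.8 ± 32.5 and 489.8 ± 117). Within A549 these neighbours did not differ beyond their spread. In T47D, TOMM6 came first at 305.8 ± 45.4 CPM per kb, followed by HSPE1 at 249.1 ± 54.3, whose libraries overlapped those of TOMM6. TOMM7 at 241.2 ± 9.82, TIMM10 at 214.0 ± 33.2 and HSPD1 at 212.2 ± 47.3 lay wholly below the TOMM6 libraries and overlapped those of HSPE1. HCT116 had the highest mean for 15 of 36 members and T47D the lowest for 15. The largest ratio between lines was that of DNAJC19, 98.0 CPM per kb in T47D against 12.2 in A549 (8.03 times). The mean of TIMM17B was 170.8 CPM per kb in T47D and 25.7 in HCT116, which had the highest mean of its paralog TIMM17A at 170.9.

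**Figure D5:**
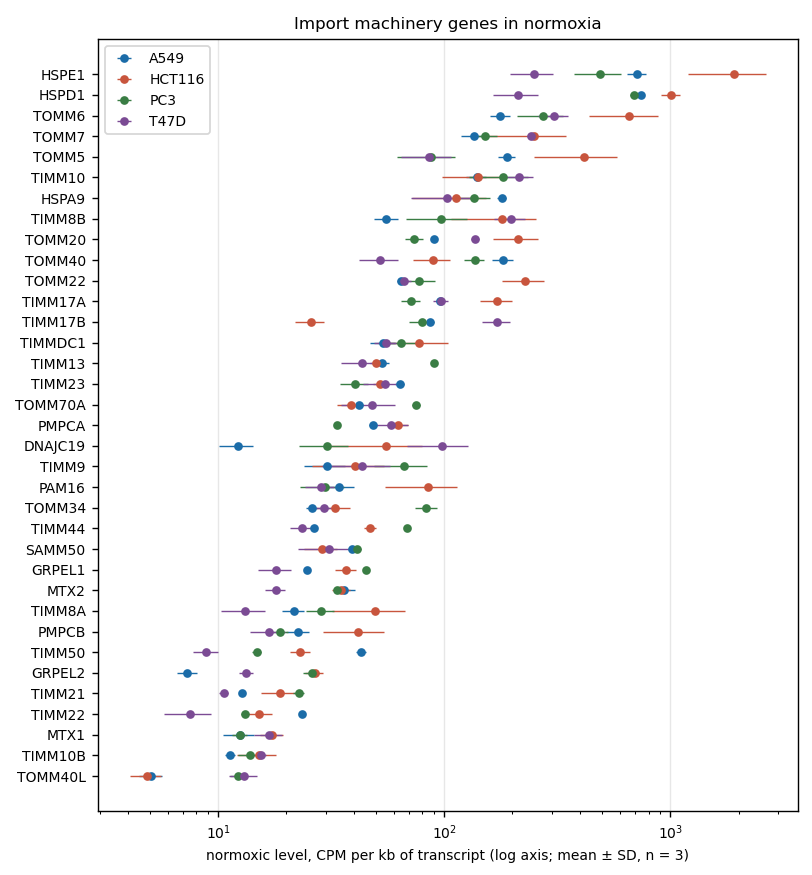
Normoxic level in CPM per kb of canonical transcript (log axis, mean ± SD of 3 libraries) for 35 import genes in 4 cell lines, ordered by their mean; TOMM20L, below 1 CPM per kb, is left out. HSPE1 and HSPD1 head the list, and HCT116 reaches 1915.7 CPM per kb for HSPE1.

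Among 47 other genes of the pathway, 14 of 45 tested were downregulated in A549, 14 of 46 in HCT116, 8 of 46 in PC3 and 2 of 46 in T47D. The shares of all genes were 17.8%, 27.0%, 15.7% and 6.69%. Upregulated were 2, 9, 3 and 2, against 17.6%, 23.3%, 16.6% and 6.55% of all genes. Apart from the downregulated count in A549, these counts were near or below the all-gene shares. LONP1, the matrix protease that degrades misfolded arrivals, was upregulated in all 4 lines (log2 fold changes 0.45, 1.55, 0.62 and 0.96), as was PINK1, the kinase that accumulates at TOM when import stalls (0.82, 1.60, 0.96 and 0.82). MTX3, another metaxin, was downregulated in A549, HCT116 and PC3 (-0.90, -0.97 and -0.62). OMA1, an inner membrane protease, was downregulated in the same lines (-0.48, -1.10 and -0.52), as was the cytosolic chaperone DNAJA2 (-0.57, -1.14 and -0.39). DNAJC15, a paralog of DNAJC19, was downregulated in HCT116, PC3 and T47D (-1.39, -0.60 and -1.01) and the MICOS subunit APOO in A549, HCT116 and T47D (-0.60, -1.46 and -0.82).

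Among the regulators of mitochondrial biogenesis and stress, the mitochondrial transcription factors TFAM (-0.53, -1.25 and -0.47) and TFB2M (-0.78, -1.85 and -0.85) and the ETS partner GABPB1 (-0.60, -0.80 and -0.65) were downregulated in A549, HCT116 and PC3. MXI1, a MYC antagonist, was upregulated in all 4 lines (1.61, 1.67, 0.40 and 2.25). MYC itself was upregulated in HCT116 and T47D (1.08 and 1.01). NRF1, POLRMT and HSF1 were upregulated in HCT116 (0.53, 0.81 and 0.86), and HSF1 also in PC3 (0.31). Of the regulators, 4 of 16 tested were downregulated in A549, HCT116 and PC3 each, and 1 of 17 in T47D. All-gene shares were 17.8%, 27.0%, 15.7% and 6.69%, so the HCT116 and T47D counts were near them. Upregulated were 1, 5, 2 and 2, against 17.6%, 23.3%, 16.6% and 6.55% of all genes. The mitochondrial ribosomal proteins, another nuclear-encoded group, were downregulated for 56 of 77 genes in A549, 60 of 78 in HCT116, 45 of 77 in PC3 and 14 of 78 in T47D. Their medians were -0.46, -1.18, -0.43 and -0.47. Of the SLC25 carriers, which are substrates of the TIM22 route, 9 of 40, 12 of 43, 10 of 41 and 3 of 42 were downregulated in the same lines, beside the same all-gene shares of 17.8%, 27.0%, 15.7% and 6.69%.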

How the data were processed

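The authors sequenced poly-A RNA and deposited raw read counts per gene for each library. Per the study's methods and the submitters' processing notes, reads were trimmed (Trim Galore 0.3.3), aligned to GRCh37/hg19 (HISAT2 2.05), stripped of non-unique fragments (Picard 2.0.1) and counted on UCSC genes (HTSeq 0.5.4p3, intersection-strict). The strand setting is not given in the sources used here, so overlapping antisense genes cannot be told apart. Nothing says that replicates were separate cultures, so p-values measure the spread between these libraries, which may be technical.

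Counts were tested within each line with edgeR 4.0.16 (filterByExpr, TMM, quasi-likelihood) in R 4.3.3, tested on simulated data. SE is the absolute log2 fold change divided by the square root of F. CPM in the comparisons of oxygen states used the TMM factors of that line, and levels across lines those of all 24 libraries. Pair ratios used a prior count of 2. Alternatives were DESeq2 1.42.0, other scalings, filters and thresholds, a replicate block, GC content and length splines (5 degrees of freedom each) and leaving out each library. Transcript length, GC content and positions came from GENCODE on GRCh37, which matched 93.4% of symbols, and promoters from RefSeq. Same-numbered libraries correlated above 0.1 in every pair of PC3 (0.102 to 0.129) and T47D (0.197 to 0.295). The 3 pairs of HCT116 correlated at 0.334, 0.270 and 0.089, and those of A549 at 0.247, 0.120 and -0.011. Neither the main fits nor the relabelings of the pair ratios kept same-numbered libraries together. Genes were named by the number of lines called, the 4 largest changes per line, the pairs and the 4 smallest interaction p-values. Members and lists were chosen with earlier results of these data known. The floor of 3 counts concerns counting error alone, and the tests did not use it as a filter. The splits by length and GC content, the corrected pair differences and the subsets without members that have copies or overlapping genes were chosen after seeing the data. Part of the prostate marker list is not reported here.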

Additional observations from a re-analysis of the deposited data

Results flagged for a closer look

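The hypoxia effect of 8 import genes differed between the 4 lines by the edgeR interaction test over all 24 libraries (8 of 36, a share near the 18.3% of all genes). HCT116 held the most extreme log2 fold change of each of the 8. TOMM34 (adjusted p = 0.00828) had log2 fold changes of -0.24, 0.60, -0.03 and -0.05 in A549, HCT116, PC3 and T47D. TIMM8B (adjusted p = 0.0118) is described above. TOMM5 (adjusted p = 0.0203) had -0.65, -2.16, -0.72 and -1.22, and TIMM8A (adjusted p = 0.0227) had -0.94, -2.13, -0.74 and -0.93. TIMM17A (adjusted p = 0.0332) had -0.67, -1.35, -0.34 and -0.65. TIMM10 (adjusted p = 0.0347) had -0.72, -2.19, -0.89 and -0.97. TIMMDC1 (adjusted p = 0.0455) had -0.55, -1.40, -0.39 and -0.50. GRPEL1 (adjusted p = 0.0471) had -0.20, 0.39, -0.03 and 0.21. With the GC content and length correction, TOMM34, TIMM8B, TIMM10 and GRPEL1 were still called, together with MTX2. With the replicate block, TIMM17A and TIMMDC1 were no longer called, and TOMM7 and TOMM40 were.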

How the results depend on the processing

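Downregulated members numbered 14 to 23 in A549, 15 to 21 in HCT116, 8 to 24 in PC3 and 0 to 15 in T47D when each library was left out in turn. The share of all genes downregulated ran from 10.4% to 18.6%, 19.6% to 24.2%, 6.4% to 20.1% and 0.133% to 12.2%. Upregulated members in HCT116 then numbered 0 to 2, interaction calls 1 to 13 and normoxic calls 30 to 34. Pairs numbered 5 to 6 when each replicate number was left out of all groups at once. With the GC content and length correction there were 15 (A549) and 14 (PC3) downregulated and 1 (A549), 2 (HCT116) and 1 (T47D) upregulated members, and 5 interaction calls. With the replicate block added these were 15, 14, 1, 3 and 1, and there were 10 interaction calls. In that fit 17.8% of all genes were downregulated in A549 and 12.7% in PC3. The replicate block alone gave 9 downregulated members in T47D and moved no other count by over 1.5 times. It added TOMM20 and TIMM23 in HCT116 and changed no downregulated call in A549. One fit of all 24 libraries gave 7 in A549 (7.35% of all genes), 3 in PC3 (2.64%) and 13 in T47D (9.94%). It gave 2 upregulated members in HCT116, where 4362 of 16089 genes were upregulated. At an adjusted p under 0.01 there were 14, 8 and 0 in A549, PC3 and T47D, 0 upregulated in HCT116 and 1 interaction call. At a fold change over 1.5 there were 9 in A549 and 10 in PC3. The shares of all genes at these thresholds are not given here. In T47D total counts gave 14 (10% of all genes), no filter 8 (7.25%) and DESeq2 9 (6.04% of all 23106 genes). DESeq2 made 13 interaction calls. Under the correction, called log2 fold changes changed sign for TOMM7 (0.13 with and without the block), MTX2 (0.39, both) and HSPE1 (0.10, and 0.15 with the block) in HCT116 and TIMM17A (0.07, and 0.06 with the block) in PC3, and HSPD1 in PC3 was 0.00 with the block. The cause of these shifts was not tested. The other alternatives kept counts within 1.5 times. Without the 9 members that have a near-identical copy or at least 3 named pseudogenes, 15, 15, 15 and 2 of 26 were downregulated in A549, HCT116, PC3 and T47D. Without the 25 that another annotated gene overlaps on either strand, 8, 8, 9 and 1 of 11 were. No share of all genes without copies or overlaps is available beside these counts, so they cannot be set against a background.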
